A study of Mus musculus with 12 samples.

Results

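The HoxA cluster genes described here are *Hoxa2*, *Hoxa3*, *Hoxa4*, *Hoxa5*, *Hoxa6*, *Hoxa7*, *Hoxa9* and *Hoxa10*, 8 of the 55141 genes in the deposited count table. They were found by symbol in the FPKM table and followed by Ensembl identifier through the counts, and all 8 were present. Gastruloids are aggregates of mouse embryonic stem cells, here of 129/SVEV background, that break symmetry and elongate in culture. All groups shared a pulse of the Wnt agonist CHIR 99021 after aggregation, embedding in a dextran and PEG hydrogel, and harvest at 120 h after seeding. The groups differed in the time of embedding (72 h or 96 h after seeding) and in the gel (1.0 mM or 1.5 mM), with 3 biological replicates in each of the 4 groups and a pool of gastruloids behind each library. Gastruloids embedded at 72 h were both younger at embedding and longer in the gel, and these cannot be told apart. None of the 12 libraries came from gastruloids without a gel, and a single ESC background was used.

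Hox genes encode homeodomain transcription factors that give cells their position along the head-to-tail axis. In the mouse they sit in 4 clusters and are switched on in the order of their position, from the 3′ end, which serves the hindbrain and neck, to the 5′ end, which serves the posterior trunk and limbs. Gastruloids are known to run through this sequence as their posterior pole grows. In bulk RNA, fewer expressing cells and less RNA per cell cannot be told apart, which holds for every level below.

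In mm10 all 8 members lie on the minus strand of chromosome 6. *Hoxa2* occupies chr6:52162417-52164831, the 3′ end of the set, and *Hoxa10* occupies chr6:52231197-52240854, the 5′ end. In GENCODE M21, *Hoxa3* (chr6:52169062-52213115) has a distant first exon, so that *Hoxa4* (chr6:52189671-52191753), *Hoxa5* (chr6:52201754-52204587) and *Hoxa6* (chr6:52206288-52208722) lie inside its introns. *Hoxa7* (chr6:52214498-52221854) and *Hoxa9* (chr6:52223100-52227370) follow. Antisense transcripts cover 25.4% of the exonic bases of *Hoxa3*, 16% of those of *Hoxa4* and 20.4% of those of *Hoxa7*, and the strand setting of the counts is not given in the sources used here. Sense and antisense reads of these 3 genes therefore cannot be told apart in the counts. The methods name a strand setting for the deposited FPKM, which list *Hoxa3* above 0 but *Hoxa4* and *Hoxa7* at 0 in all 12 libraries. *Hoxa2* and *Hoxa3* also share 267 and 482 exonic bases with *Gm28308* on their own strand.

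RefSeq promoter windows of 300 bases (250 before the start of transcription and 50 from it, GRCm38.p6) were found for 7 of the 8 members, *Hoxa4* having no entry. Their GC content ran from 45.7% to 64%, against a median of 52.7% over all 32851 windows. The windows of the most abundant member, *Hoxa2* (chr6:52164782-52165081), and of *Hoxa7* (chr6:52218524-52218823), the member with the widest fitted difference below, are shown 5′ to 3′ on the minus strand. Capitals mark TTTATG, the core bound by the CDX factors, which are known activators of Hox genes; both strands were searched.
*Hoxa2*: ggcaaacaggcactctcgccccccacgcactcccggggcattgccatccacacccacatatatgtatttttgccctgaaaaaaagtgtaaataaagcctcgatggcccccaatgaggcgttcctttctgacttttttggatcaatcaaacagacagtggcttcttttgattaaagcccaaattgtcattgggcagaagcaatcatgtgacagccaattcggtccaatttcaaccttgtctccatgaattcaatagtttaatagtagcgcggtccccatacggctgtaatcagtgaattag
*Hoxa7*: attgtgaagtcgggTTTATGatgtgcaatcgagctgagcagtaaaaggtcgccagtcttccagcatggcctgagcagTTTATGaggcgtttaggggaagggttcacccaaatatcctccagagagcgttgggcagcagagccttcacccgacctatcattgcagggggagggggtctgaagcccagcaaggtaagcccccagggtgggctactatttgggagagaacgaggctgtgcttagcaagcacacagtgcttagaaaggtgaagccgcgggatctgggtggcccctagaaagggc
*Hoxa7* held 2 copies of TTTATG, beginning at −236 and −173 with the RefSeq start of transcription at 0, and no other window of the members held one on either strand. This window lies inside the *Hoxa7* span given above, and which start these libraries used was not tested. Over all RefSeq windows, 11.9% held at least 1 copy. A TATAAA box on either strand was present in 1 of the 8 member windows, one of the pair of *Hoxa10* windows, and in 13.6% of all windows. The Hox and PBX motif TGATNNAT was present in the *Hoxa2* window, on the opposite strand, and in 8.85% of all windows. These matches describe the letters of the windows.

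The libraries held 23011791 to 27609422 counts, of which mitochondrial genes, left out here, took 1.68% to 3.02%. The gene *CT010467.1* alone took 6.12% of the counts in replicate 1 of the 72 h, 1.5 mM group and 4.21% in replicate 2 of the 96 h, 1.5 mM group. Counts were scaled with TMM factors, and levels are given as CPM, counts relative to the scaled library total. The gastruloid label was checked against marker lists. Somite, cardiac, endoderm and pluripotency markers were all above a mean of 1 CPM in every group, while *Wnt3a* of the tail bud list, *Msgn1* of the presomitic list and *Olig2* and *Hes5* of the spinal cord list were below it in every group.

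The members ran from readily counted to nearly silent along the cluster. Over the 12 libraries *Hoxa2* gave 14459 counts and *Hoxa3* gave 4282, that is 72.8% and 21.6% of all counts of the members. *Hoxa4* gave 487 counts, *Hoxa5* gave 437, *Hoxa7* gave 151, *Hoxa9* gave 32 and *Hoxa10* gave 9. *Hoxa6* gave 1 count, in replicate 1 of the 96 h, 1.0 mM group, and is not described further. The FPKM table lists *Hoxa4*, *Hoxa6* and *Hoxa7* at 0 in all 12 libraries although their counts are not all 0, so the counts were used for levels.

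**Figure D1:**
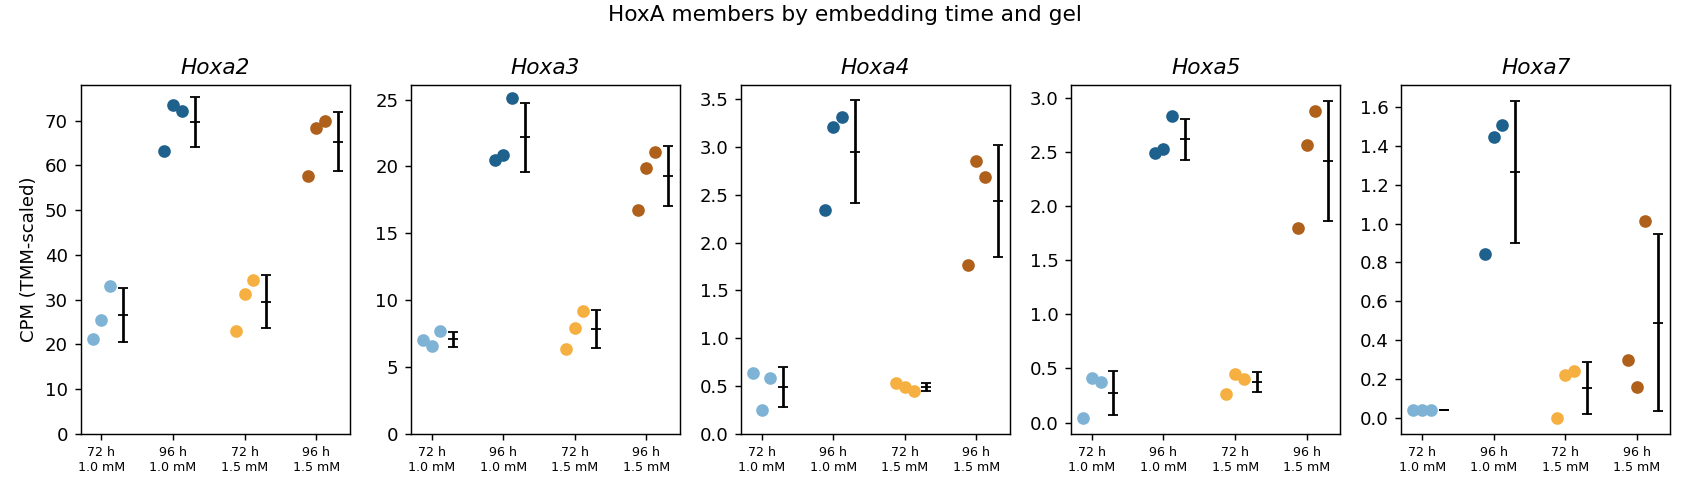
CPM (TMM-scaled, linear axes from 0) of the 5 members that passed the count filter over all libraries. Each point is a library and the bar beside each group is the mean ± SD (n = 3). For *Hoxa2*, *Hoxa3*, *Hoxa4* and *Hoxa5* every library embedded at 96 h lies above every library embedded at 72 h, whereas the libraries of *Hoxa7* in 1.5 mM gels overlap.

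The first question was what the time of embedding did to the cluster. In both gels *Hoxa2* to *Hoxa5* were higher when gastruloids were embedded at 96 h than at 72 h. In 1.0 mM gels, *Hoxa2* was 2.61-fold higher, *Hoxa3* 3.12-fold, *Hoxa4* 6.001-fold, *Hoxa5* 9.28-fold and *Hoxa7* 27.2-fold (fitted folds of means of 3 libraries), and in 1.5 mM gels the first 4 of these were 2.22-fold, 2.46-fold, 4.95-fold and 6.42-fold higher.

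*Hoxa2*, which patterns the hindbrain and the second pharyngeal arch, stood at 21.3, 25.3 and 33.0 CPM in the 3 libraries of the 72 h, 1.0 mM group, and at 63.2, 73.5 and 72.2 CPM in the 96 h, 1.0 mM group. With the 1.5 mM gel the values were 22.9, 31.2 and 34.4 CPM at 72 h and 57.7, 68.3 and 70.0 CPM at 96 h. The 6 libraries of each embedding time did not overlap, the highest at 72 h being 34.4 CPM and the lowest at 96 h 57.7 CPM. The log2 fold change (96 h over 72 h) was 1.39 ± 0.14 (SE) in 1.0 mM gels, with an edgeR quasi-likelihood adjusted p of 0.000249, and 1.15 ± 0.14 in 1.5 mM gels (adjusted p = 0.00227).

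*Hoxa3*, which acts in the posterior pharyngeal arches and the posterior hindbrain, stood at 7.04, 6.54 and 7.66 CPM in the 72 h, 1.0 mM group and at 20.5, 20.9 and 25.1 CPM in the 96 h, 1.0 mM group. For the stiffer gel the values were 6.35, 7.93 and 9.21 CPM against 16.8, 19.9 and 21.1 CPM. No library at 96 h fell below any library at 72 h. The log2 fold change was 1.64 ± 0.13 in 1.0 mM gels (adjusted p = 7.64e-05) and 1.301 ± 0.152 in 1.5 mM gels (adjusted p = 0.00214).

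*Hoxa4* and *Hoxa5* pattern the neck and upper thorax, and *Hoxa5* is also required in the developing lung. *Hoxa4* had 15, 6 and 14 counts at 72 h in 1.0 mM gels and 61, 80 and 90 at 96 h. The corresponding counts in 1.5 mM gels were 12, 11 and 11 against 47, 71 and 69. *Hoxa5* had 1, 10 and 9 counts against 65, 63 and 77 in 1.0 mM gels, and 6, 10 and 10 counts against 48, 64 and 74 in 1.5 mM gels. For both genes the 72 h and 96 h libraries were apart in each gel and over both gels together, with few reads of either gene after embedding at 72 h. For *Hoxa4* the log2 fold change was 2.59 ± 0.34 in 1.0 mM gels (adjusted p = 0.00106) and 2.31 ± 0.30 in 1.5 mM gels (adjusted p = 0.00271). For *Hoxa5* it was 3.21 ± 0.43 (adjusted p = 0.00121) and 2.68 ± 0.32 (adjusted p = 0.00232).

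*Hoxa7*, a trunk gene, had 1 count in each of the 3 libraries of the 72 h, 1.0 mM group and 22, 36 and 41 counts after embedding at 96 h. Its log2 fold change was 4.76 ± 0.53 (adjusted p = 0.000373). Taken as the ratio of the group sums, 99 against 3 counts with the totals scaled, it was 30.4 (95% exact interval 10.1 to 150). The same gene had, in 1.5 mM gels, 0, 5 and 6 counts at 72 h and 8, 4 and 26 counts at 96 h. There the 2 groups overlapped, the ratio was 3.11 (1.56 to 6.75), and *Hoxa7* did not pass the filter on low counts. Without that filter its adjusted p in 1.5 mM gels was 0.109. These intervals, like those of the shares below, cover counting error only.

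The 2 members at the 5′ end were close to the detection limit. *Hoxa9*, of the lower trunk, had no count in the 3 libraries at 72 h in 1.0 mM gels and 5, 5 and 8 counts at 96 h. With a floor of 3 counts over the 72 h group in place of 0, its ratio was 5.53. This takes the 96 h counts as exact and is not a lower limit. The stiffer gel gave 0, 4 and 0 counts against 4, 5 and 1, a ratio of 2.25 (0.65 to 9.84). *Hoxa10*, best known from the lumbar region and the reproductive tract, had 0 counts against 1, 3 and 2 in 1.0 mM gels. With the same floor its ratio was 1.84. The stiffer gel gave 0, 2 and 0 against 0, 0 and 1, with a ratio of 0.451 (0.00764 to 8.65). A difference in these 2 genes in 1.5 mM gels was not detectable at this depth.

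Genes were called differentially expressed (DE) at an adjusted p below 0.05 with an absolute log2 fold change above 1. In 1.0 mM gels 5 members were tested and all 5 were DE and higher at 96 h, where 1.69% of the 15763 genes tested were DE and higher. For 1.5 mM gels 4 were tested and 4 were DE and higher, where the background was 1.57% of 15683 genes. Across both gels, with all 12 libraries, 5 were tested and 5 were DE and higher, against 2.29% of 16388 genes. *Hoxa7* stood there at 3.01, and at 3.63 without replicate 3 of the 72 h, 1.5 mM group. *Hoxa5* and *Hoxa7*, and in 1.0 mM gels *Hoxa4* too, passed the filter through their 96 h libraries alone. A difference was therefore built into their being tested, and no median over the tested members is given. The 72 h and 96 h libraries were fully apart for 7 of the 8 members in 1.0 mM gels, 4 in 1.5 mM gels and 4 over both gels. Over the 16388 genes that passed the filter on all libraries, 13.6%, 19.8% and 5.36% were likewise higher at 96 h without overlap, though *Hoxa9* and *Hoxa10* are not among those genes.

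**Figure D2:**
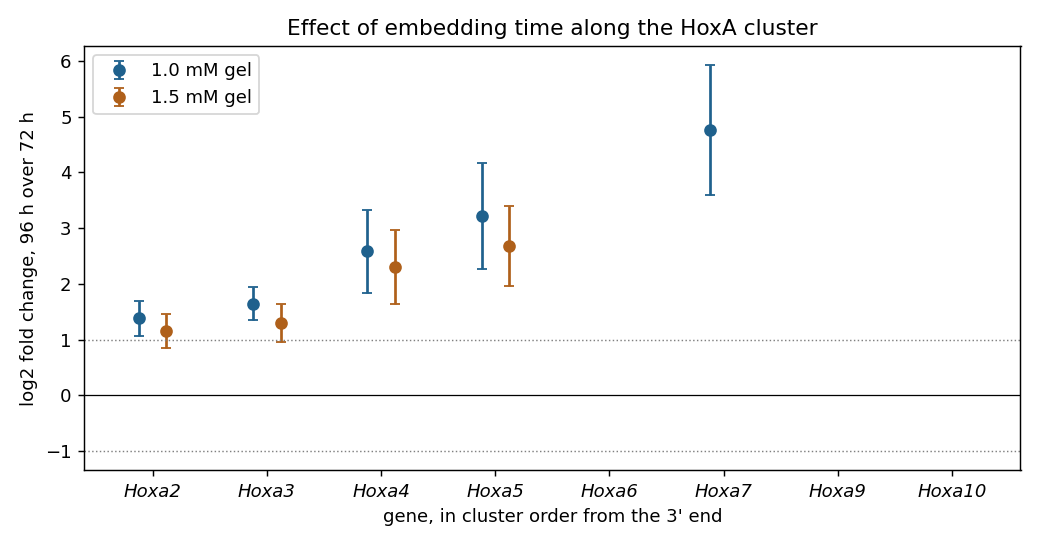
Log2 fold change, 96 h over 72 h, with its 95% interval from edgeR, for the members in cluster order, in 1.0 mM gels (blue) and 1.5 mM gels (brown). Dotted lines mark the DE threshold of 1, and genes with no point did not pass the count filter. In both gels the fitted values increase from *Hoxa2* to *Hoxa5*, and in 1.0 mM gels on to *Hoxa7*.

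From *Hoxa2* to *Hoxa5* the fitted differences increased in the order of the genes on the chromosome in both gels. Of these genes, *Hoxa5* in both gels and *Hoxa4* in 1.0 mM gels were tested through their 96 h libraries alone. The order went on to *Hoxa7* in 1.0 mM gels alone, where that gene was also tested through its 96 h libraries. It did not go on in 1.5 mM gels, where the ratios of the group sums were 6.45 for *Hoxa5*, 3.11 for *Hoxa7*, 2.25 for *Hoxa9* and 0.451 for *Hoxa10*. In 1.0 mM gels the 95% intervals of the log2 fold change were 1.07 to 1.70 for *Hoxa2*, 1.35 to 1.94 for *Hoxa3*, 1.84 to 3.33 for *Hoxa4*, 2.26 to 4.16 for *Hoxa5* and 3.60 to 5.93 for *Hoxa7*. For 1.5 mM gels they were 0.84 to 1.46, 0.96 to 1.64, 1.64 to 2.97 and 1.96 to 3.40 for the first 4 genes. Neighbouring genes thus had overlapping intervals throughout, whereas *Hoxa2* and *Hoxa4* did not overlap in either gel. The difference between the folds of 2 genes was not tested. *Hoxa3* counts were 23.2% to 33.1% of *Hoxa2* counts at 72 h and 28.4% to 34.8% at 96 h in 1.0 mM gels, with overlap, and 25.4% to 27.7% against 29.1% to 30.2% in 1.5 mM gels, without it. *Hoxa4* counts were 3.75% to 9.04% of *Hoxa3* counts at 72 h in 1.0 mM gels and 11.4% to 15.4% at 96 h. The same ratio in 1.5 mM gels was 4.85% to 8.39% at 72 h and 10.5% to 14.3% at 96 h. The step from *Hoxa3* to *Hoxa4* was therefore steeper in each of the 6 libraries embedded at 72 h than in any of the 6 embedded at 96 h.

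Scaled to length, the order of the levels was nearly that of the cluster. In CPM per kb of merged exons, the means at 96 h in 1.0 mM gels were 39.2 ± 3.16 (SD, n = 3) for *Hoxa2*, 3.69 ± 0.43 for *Hoxa3*, 1.85 ± 0.34 for *Hoxa4* and 1.39 ± 0.10 for *Hoxa5*. They were 0.44 ± 0.13 for *Hoxa7*, 0.041 ± 0.010 for *Hoxa9* and 0.024 ± 0.013 for *Hoxa10*. Between neighbours in this order, the libraries of *Hoxa4* (1.47 to 2.08) and *Hoxa5* (1.33 to 1.51) overlapped, as did those of *Hoxa9* (0.0343 to 0.0527) and *Hoxa10* (0.0117 to 0.0368), and the other neighbours were apart. At 72 h in 1.0 mM gels the group means kept the order, from 15.0 ± 3.37 for *Hoxa2* through 1.18 ± 0.09 for *Hoxa3*, 0.31 ± 0.13 for *Hoxa4* and 0.15 ± 0.11 for *Hoxa5* to 0.014 for *Hoxa7*. There the libraries of *Hoxa4* (0.154 to 0.399) and *Hoxa5* (0.0226 to 0.218) overlapped, and in replicate 2 *Hoxa5* was above *Hoxa4*. In the 2 groups in 1.5 mM gels the means of *Hoxa2* were 16.6 at 72 h and 36.8 at 96 h per kb, those of *Hoxa5* 0.198 and 1.29, and those of *Hoxa7* 0.054 and 0.171. Merged exons add up all isoforms, so genes with long alternative exons, such as *Hoxa3* and *Hoxa9*, read lower on this scale. In the deposited FPKM, *Hoxa2* and *Hoxa3* had means of 28.3 ± 2.15 and 7.21 at 96 h in 1.0 mM gels.

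**Figure D3:**
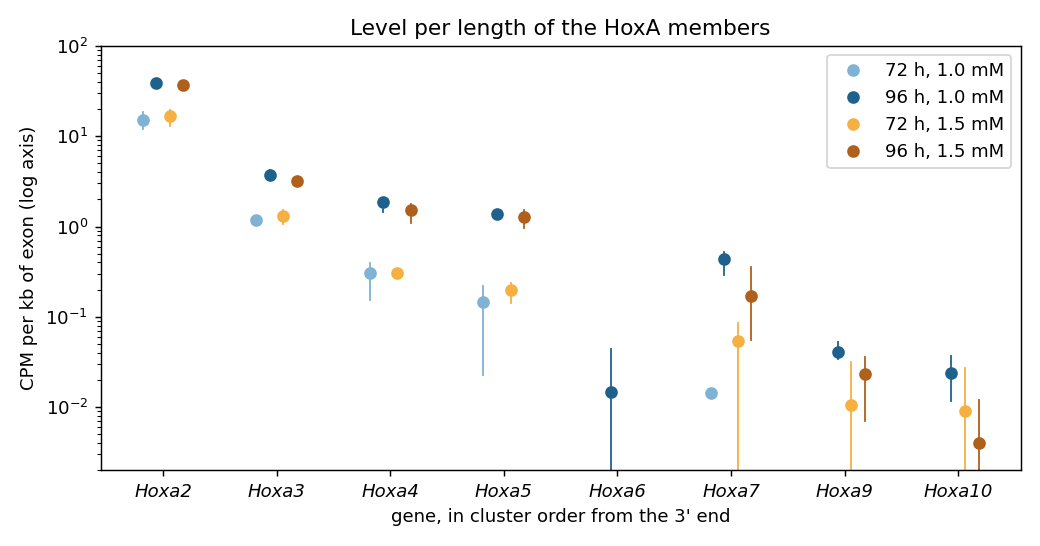
Mean CPM per kb of merged exons (log axis) of each member in cluster order, in the 4 groups. Points are means of 3 libraries, lines run from the lowest to the highest library and to the foot of the axis where a library was at 0, and group means of 0 are not drawn. *Hoxa6* apart, means fall from *Hoxa2* to *Hoxa7* in every group. They fall on to *Hoxa10*, on few counts, except in the 72 h, 1.0 mM group, where *Hoxa9* and *Hoxa10* were both at 0. The gap between 72 h (light) and 96 h (dark) is wider for *Hoxa4* and *Hoxa5* than for *Hoxa2*.

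The make-up of the HoxA output, as well as its size, is given for each embedding time. With 1.0 mM gels the members together summed to 29.0 to 41.7 CPM per library after embedding at 72 h and to 89.6 to 105 CPM after 96 h. With 1.5 mM gels they summed to 30.1 to 44.7 CPM and to 78.4 to 97.7 CPM. *Hoxa4* to *Hoxa10* made up 2.13% to 2.48% of the member counts at 72 h in 1.0 mM gels and 6.63% to 7.61% at 96 h. The 1.5 mM libraries gave 2.45% to 3.52% at 72 h and 5.12% to 6.81% at 96 h. The exact 95% binomial interval of the highest 72 h library was 2.42% to 4.93%, and that of the lowest 96 h library 4.21% to 6.15%. The shares of the 72 h and 96 h libraries did not overlap, whereas the intervals of these 2 libraries did.

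**Figure D4:**
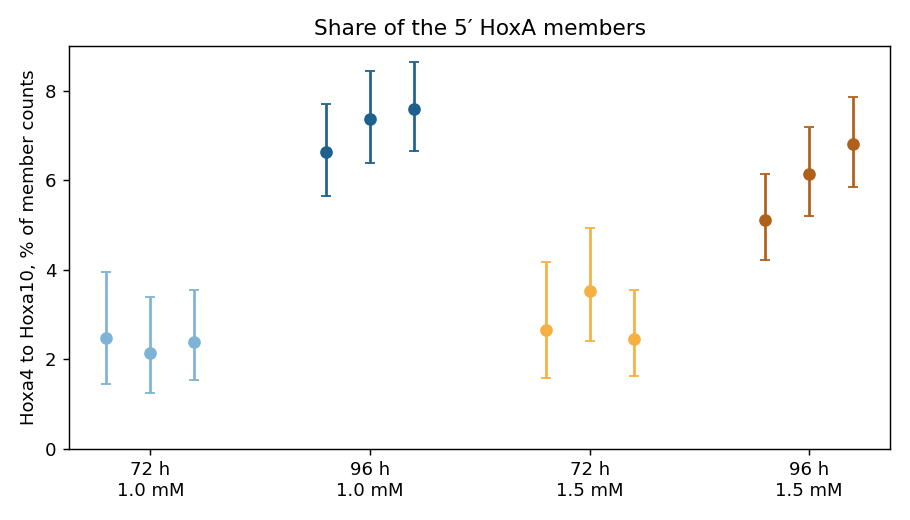
Share of the counts of the 8 members that fell on *Hoxa4* to *Hoxa10*, in percent (axis from 0), in each of the 12 libraries with its exact 95% binomial interval. The 6 libraries embedded at 72 h lie between 2.13% and 3.52%, and the 6 embedded at 96 h between 5.12% and 7.61%.

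The second question was what the gel did. In the HoxA cluster no difference between the softer and the stiffer gel passed the test after either time of embedding. At 72 h, 3 members were tested and 0 were DE (edgeR, background 0% of 15563 genes). Of these 3, 0 had an unadjusted p below 0.05, where 6.9% of all genes did. The log2 fold change (1.5 mM over 1.0 mM) was 0.15 for *Hoxa2* (95% interval −0.25 to 0.55), 0.15 for *Hoxa3* (−0.24 to 0.53) and 0.01 for *Hoxa4* (−0.93 to 0.94). At 96 h, 5 were tested and 0 were DE (background 0% of 15861 genes), and 1 of them, *Hoxa7*, had an unadjusted p below 0.05, as did 9.95% of all genes. DESeq2 and limma-voom likewise called 0 members in both comparisons, DESeq2 giving no adjusted p for *Hoxa4* at 72 h. A replicate block in edgeR also called 0 members in both. It did call genes outside the cluster in both, so the backgrounds of 0% hold only without the block.

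At 96 h the fitted values of all 5 tested members were below 0 in the stiffer gel. They were −0.09 for *Hoxa2* (95% interval −0.28 to 0.10), −0.20 for *Hoxa3* (−0.46 to 0.05), −0.28 for *Hoxa4* (−0.80 to 0.23) and −0.12 for *Hoxa5* (−0.60 to 0.36). The intervals leave room for a fall of up to 0.28 in *Hoxa2* and 0.80 in *Hoxa4* on the log2 scale. For *Hoxa2* and *Hoxa5* the sign turned when replicate 1 in 1.5 mM gels was left out. *Hoxa7* stood at −1.36 (−2.46 to −0.25), from 22, 36 and 41 counts in 1.0 mM gels and 8, 4 and 26 in 1.5 mM gels, with an overlap of 1 library. Its edgeR adjusted p was 0.429, and 0.0226 when no filter on low counts was applied. For *Hoxa7* the adjusted p was 0.394 with DESeq2, 0.340 with limma-voom and 0.0901 with a replicate block in edgeR. Without replicate 3 of the 96 h, 1.5 mM group its log2 fold change was −2.42 (adjusted p = 0.0797). Over both embedding times 0 members were DE between gels, where 0.0061% of all genes were, and 0 of the 5 had an unadjusted p below 0.05, where 12.7% of all genes did.

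An interaction term, fitted on the 12 libraries together, asked whether the effect of embedding time depended on the gel. It was called for 0 of 5 members, by edgeR, DESeq2 and limma-voom alike, and for 0% of the 16388 genes by edgeR. The interaction, as the log2 fold change in 1.5 mM gels minus that in 1.0 mM gels, was −0.24 for *Hoxa2* (−0.71 to 0.22), −0.35 for *Hoxa3* (−0.79 to 0.08), −0.29 for *Hoxa4* (−1.30 to 0.72) and −0.54 for *Hoxa5* (−1.82 to 0.74). *Hoxa7* stood at −3.16 (−5.90 to −0.41) with an unadjusted p of 0.0271 and an adjusted p of 0.953, where 4.32% of all genes had an unadjusted p below 0.05. Its call in 1.0 mM gels and the lack of a test in 1.5 mM gels therefore do not show that the gels differed.

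The neighbours of the members on chromosome 6 were measured beside them. Of 10 listed neighbours 6 were tested, and 5 passed an adjusted p of 0.05 and were higher at 96 h in each gel. Over all genes, 3.27% were higher at that threshold with the 1.0 mM gel and 8.98% with the 1.5 mM gel. *Skap2*, an adaptor protein gene that flanks the cluster beyond its 3′ end, rose by 0.80 and 0.53 (adjusted p = 0.00348 and 0.0161). Among the long non-coding RNAs, *Hotairm1* rose by 1.40 and 1.13, *Hoxaas2* by 1.70 and 1.29, *Halr1* by 1.67 and 1.298, and *Hoxaas3*, whose exons overlap those of *Hoxa3* and *Hoxa7*, by 3.06 and 3.12. *Hoxaas3* passed the count filter through its 96 h libraries alone, so a difference was built into its being tested, and no median over these genes is given.

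*Evx1*, the homeobox gene beyond the 5′ end of the cluster that is expressed in the primitive streak and tail bud, went the other way. Its means with the 1.0 mM gel were 2.81 ± 1.71 CPM for the 72 h group and 0.939 ± 0.433 CPM for the 96 h group, and with the 1.5 mM gel 2.87 ± 0.82 against 1.99 ± 0.88 CPM (SD, n = 3). Its libraries overlapped in both gels. Its log2 fold change was −1.59 (adjusted p = 0.0617) in 1.0 mM gels and −0.52 (adjusted p = 0.326) in 1.5 mM gels, and it was DE and lower only across both gels (−1.02, adjusted p = 0.0371), as were 2.36% of all genes. limma-voom gave an adjusted p of 0.05004 there. *Hoxa11*, *Hoxa13*, *Hoxa11os* and *Hottip*, at the 5′ end, did not pass the filter. *Hoxa13* had 4 and 3 counts over the 72 h and 96 h groups in 1.0 mM gels, and 11 and 9 in 1.5 mM gels.

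**Figure D5:**
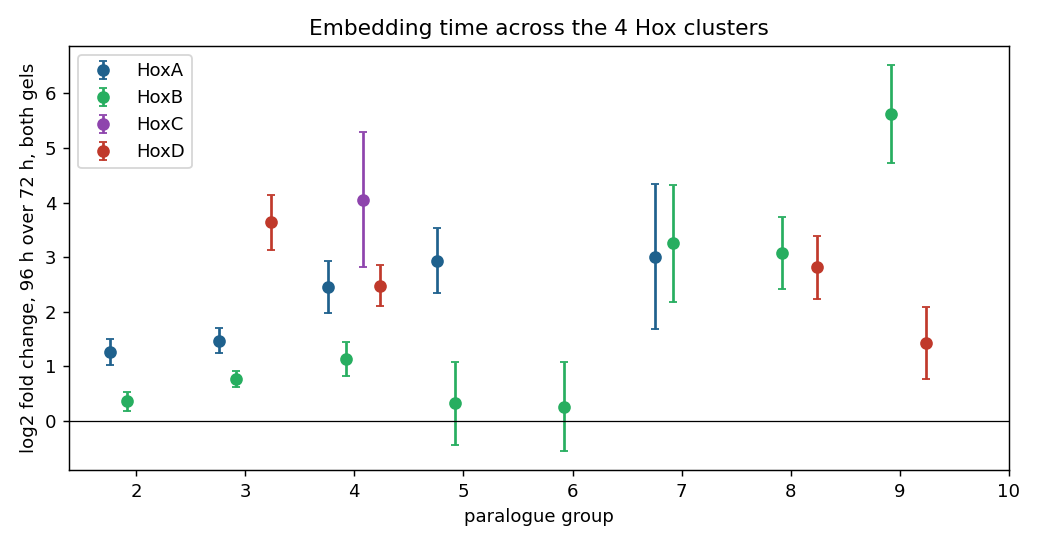
Log2 fold change, 96 h over 72 h across both gels (edgeR, all 12 libraries), with 95% intervals, by paralogue group for the HoxA genes and the listed HoxB, HoxC and HoxD genes that passed the filter. The HoxA values increase from group 2 to group 5, while *Hoxb5* and *Hoxb6* lie near 0 and *Hoxb9* and *Hoxd3* are at 5.62 and 3.64.

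The paralogues of the members in the other 3 clusters, which share their group number by descent from a common ancestral cluster, were mostly higher at 96 h too. Of 19 listed, 13 were tested in 1.0 mM gels and 10 passed an adjusted p of 0.05, all higher at 96 h. With the 1.5 mM gel 10 were tested and 8 passed, all higher. Over all genes 3.27% and 8.98% were higher at this threshold. *Hoxb7*, *Hoxb8*, *Hoxb9*, *Hoxc4*, *Hoxd8* and *Hoxd9* passed the count filter through their 96 h libraries alone, so a difference was built into their being tested. Across gels *Hoxb2* rose by 0.36 (95% interval 0.18 to 0.53), below the interval of *Hoxa2* (1.03 to 1.51). *Hoxb3* rose by 0.77 (0.63 to 0.91) and *Hoxd3* by 3.64 (3.13 to 4.14), on either side of *Hoxa3* (1.24 to 1.70). In group 4, *Hoxb4* rose by 1.14 (0.83 to 1.45), *Hoxd4* by 2.48 (2.10 to 2.86) and *Hoxc4* by 4.05 (2.82 to 5.28), around the 2.45 of *Hoxa4* (1.98 to 2.92). In group 5, *Hoxb5* stood at 0.32 (−0.44 to 1.08, adjusted p = 0.525) and *Hoxa5* at 2.94 (2.34 to 3.53). In group 7 the 2 paralogues were close, *Hoxb7* at 3.25 (2.18 to 4.32) and *Hoxa7* at 3.01 (1.69 to 4.33). *Hoxb8*, *Hoxb9*, *Hoxd8* and *Hoxd9* rose by 3.08, 5.62, 2.81 and 1.43. In HoxB the values also increased from *Hoxb2* to *Hoxb4*, but the order did not go on from there. The values of *Hoxb5* and *Hoxb6* (0.26) lay below those of *Hoxb3* and *Hoxb4*, and those of *Hoxb7*, *Hoxb8* and *Hoxb9* lay above. In HoxD the values did not increase along the cluster. Of the HoxD genes tested, *Hoxd3*, nearest the 3′ end, had the highest value (3.64) and *Hoxd9*, nearest the 5′ end, the lowest (1.43). Differences between paralogues were not tested.

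Known partners and regulators of Hox genes were measured in the same libraries. PBX and MEIS proteins bind DNA together with Hox proteins, and of 8 such genes 2 rose in 1.0 mM gels at an adjusted p below 0.05, *Meis2* by 0.80 and *Meis3* by 0.41. In 1.5 mM gels *Meis1* (0.56), *Meis2* (0.70) and *Meis3* (0.37) rose. The median over the 8 was 0.13 and 0.18 on the log2 scale in the 2 gels. Of the regulators upstream of Hox genes, the CDX gene *Cdx1* rose by 2.01 in 1.0 mM gels (adjusted p = 0.0105) and was not tested in 1.5 mM gels. *Cdx1* passed the count filter through its 96 h libraries alone, so a difference was built into its being tested. *Cdx2* stood at 0.52 (adjusted p = 0.237) and 0.04 (adjusted p = 0.931). *Cyp26a1*, which degrades retinoic acid, fell by 0.85 and 0.60 (adjusted p = 0.00206 and 0.009996). *Rara*, a retinoic acid receptor, rose by 0.47 and 0.39 (adjusted p = 0.00376 and 0.0112). *Aldh1a2*, which makes retinoic acid, rose by 0.45 in 1.0 mM gels (adjusted p = 0.00362) and stood at −0.05 in 1.5 mM gels (adjusted p = 0.875). *Rarg*, another receptor, fell by 0.26 in 1.5 mM gels (adjusted p = 0.0339). In all, 3 of 9 tested regulators rose, *Cdx1* included, and 1 fell in 1.0 mM gels, and 1 of 8 rose and 2 fell in 1.5 mM gels. Over all genes 3.27% rose and 5.97% fell in 1.0 mM gels, and 8.98% rose and 10.4% fell in 1.5 mM gels. The regulator that rose in 1.5 mM gels, 1 of 8, is near the share over all genes. Of 9 Polycomb, Trithorax and other chromatin genes, 0 passed an adjusted p of 0.05 in 1.0 mM gels by edgeR, DESeq2 or limma-voom (2 at an unadjusted p below 0.05, *Eed* and *Kdm6b*, where 22.9% of all genes were), and *Ezh1* fell by 0.28 in 1.5 mM gels (adjusted p = 0.0257), 1 of 9 being near the share over all genes, with medians of −0.01 and −0.08.

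Markers of the cell types that gastruloids hold differed between the embedding times, some lists being higher and others lower at 96 h. All 7 somite markers rose in 1.0 mM gels and 5 of 7 in 1.5 mM gels at an adjusted p below 0.05, where 3.27% and 8.98% of all genes did. Their summed level in 1.0 mM gels ran from 213.5 to 404 CPM after embedding at 72 h and from 764 to 893 CPM after 96 h. The sum in 1.5 mM gels ran from 270.1 to 483 CPM and from 599.6 to 825 CPM. Of 7 cardiac and anterior mesoderm markers, 6 fell in 1.0 mM gels and 5 in 1.5 mM gels, where 5.97% and 10.4% of all genes fell at that threshold, with sums of 406 to 615 CPM against 65.4 to 155 CPM, and 339 to 568.5 CPM against 156 to 259.6 CPM. Of 7 pluripotency markers 5 rose in each gel, with sums of 38.0 to 58.3 CPM against 108 to 149 CPM, and 38.1 to 47.7 CPM against 86.7 to 105 CPM. Of 7 endoderm markers 4 fell in 1.0 mM gels, and 4 fell and 1 rose in 1.5 mM gels, with sums of 499.5 to 574 CPM against 325 to 354 CPM, and 366 to 468.5 CPM against 253.5 to 339 CPM. Of 6 tested tail bud markers 1 rose and 2 fell in 1.0 mM gels and 2 fell in 1.5 mM gels, with *T* falling by 1.17 and 1.42 and *Nkx1-2* rising by 2.29 in 1.0 mM gels. Its sum, in which *Wnt3a* was below 1 CPM in all groups, ran from 286 to 360.5 CPM against 133 to 191 CPM in 1.0 mM gels and from 246 to 289 CPM against 121 to 132 CPM in 1.5 mM gels. Of 6 tested presomitic markers 1 rose in 1.0 mM gels and 3 fell in 1.5 mM gels. Their sums overlapped in 1.0 mM gels (60.1 to 80.1 against 57.2 to 73.5 CPM) and did not in 1.5 mM gels (61.2 to 89.3 against 48.9 to 54.6 CPM). Of 6 tested spinal cord markers 2 rose (1 of them, *Olig2*, tested through its 96 h libraries alone) and 2 fell in 1.0 mM gels, and 1 rose and 1 fell in 1.5 mM gels. Their sums were lower at 96 h in both gels (114 to 133 against 89.3 to 109 CPM, and 127 to 147 against 98.5 to 120.5 CPM). Yet as many of these markers rose as fell in each gel. A sum of CPM follows the most abundant genes of a list, here and for the other lists, and not its typical member. The part of these cell types in the HoxA difference was not tested.

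Outside the Hox families, the 5 genes whose log2 CPM over the 12 libraries was most like the mean standardized profile of *Hoxa2*, *Hoxa3*, *Hoxa4*, *Hoxa5* and *Hoxa7* were *Plch1*, *Boc*, *Meox1*, *Meox2* and *Cux2*. Pearson's r was 0.995, 0.986, 0.986, 0.983 and 0.980 among 9721 genes with a mean of at least 10 CPM. All points share the 2 embedding times, so genes that differ between these times score high. *Plch1*, a phospholipase C gene, stood at a mean of 16.2 CPM over the 6 libraries at 72 h and 52.5 CPM at 96 h, and *Boc*, a Hedgehog co-receptor gene, at 53.3 and 119 CPM. *Meox1*, a somite homeobox gene, stood at 99.3 and 329 CPM, *Meox2*, its paralogue, at 1.59 and 20.0 CPM, and *Cux2*, a homeobox gene, at 12.5 and 29.9 CPM. *Meox2* met the rule of a mean of at least 10 CPM through its 96 h libraries alone, so a difference was built into its being listed.

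Among the members themselves, deviations from the group means went together for *Hoxa2* and *Hoxa3* (r = 0.766, 12 libraries) and for *Hoxa2* and *Hoxa5* (r = 0.720), and hardly at all for *Hoxa2* and *Hoxa4* (r = 0.159). Over all pairs of the members in the profile, r ran from −0.338 for *Hoxa4* and *Hoxa5* to the 0.766 of *Hoxa2* and *Hoxa3*. *Hoxa2* was below its group mean in replicate 1 of all 4 groups, so the 12 deviations share the replicate number and are not independent. The low counts of *Hoxa4* and *Hoxa5* at 72 h limit these values.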

How the data were processed

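Poly-A RNA of 12 pools of gastruloids was sequenced as stranded paired-end libraries. Per the submitters' processing notes and the methods, the authors trimmed reads with cutadapt 4.4, aligned them to mm10 with STAR 2.7.10b and an Ensembl annotation of their own making, and deposited the unnormalized counts of each gene. The methods name STAR as their source, the table's name another counter. The deposited FPKM values come from Cufflinks 2.2.1.3. The authors' table of comparisons (fold changes and p-values) was not used. Groups came from the labels. Counts were tested with edgeR 4.0.16 in R 4.3.3 (TMM, filterByExpr by group with a minimum count of 10 and total of 15, glmQLFit, glmQLFTest), 36 mitochondrial genes left out, with Benjamini-Hochberg adjustment over all genes tested, after the script was tested on simulated data. Pairwise comparisons used 6 libraries each, the others all 12, with embedding time, gel and their product as terms. Positive values mean higher at 96 h or in 1.5 mM gels. Alternatives were DESeq2 1.42.0, limma-voom 3.58.1, RLE and upper quartile scaling, other filters (none, or 1 CPM in 3 libraries) and call rules, a replicate block, all libraries in a single fit, mitochondrial genes kept, limma on log2(FPKM + 0.1 or 1) with an FPKM of at least 0.5 in 3 libraries, and each library left out. Exon lengths and overlaps came from GENCODE M21, and promoter sequences from RefSeq (GRCm38.p6). Replicates differed by more than sampling noise. The genes named are the 8 members, for each gene list up to 4 with the largest absolute log2 fold change across gels and any called in a pairwise comparison, and the 5 most similar genes. For lists given in full in the text further genes were named after their values were seen. The members and lists were chosen with earlier results of these data known. A few genes of the lists are not reported here.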

Additional observations from a re-analysis of the deposited data

How the results depend on the processing

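All 8 members were followed under each alternative. The counts of DE members stayed at 5 (1.0 mM gels), 4 (1.5 mM gels), 0 (gels at 72 h), 0 (gels at 96 h), 5 (across gels), 0 (gels across embedding times) and 0 (interaction) with RLE or upper quartile scaling, DESeq2, limma-voom, mitochondrial genes kept and each library left out in turn (lowest and highest both 5, 4, 0, 0, 5, 0 and 0). The single fit of 12 libraries and the other call rules (no fold-change threshold, or an adjusted p below 0.01) gave the same counts wherever they were run. With no filter on low counts the count for gels at 96 h became 1 (*Hoxa7*), and *Hoxa9* joined the calls in 1.0 mM gels and across gels (6 each). With 1 CPM in 3 libraries, 4 were called in 1.0 mM gels, *Hoxa7* no longer being tested. limma on log2(FPKM + 0.1) gave 3 members in 1.0 mM gels, 3 in 1.5 mM gels and 3 across gels, and log2(FPKM + 1) gave 2 in 1.0 mM gels, 2 in 1.5 mM gels and 2 across gels, since *Hoxa4* and *Hoxa7* are listed at 0 FPKM and a pseudocount shrinks low genes. Signs that turned, each for a value that was not called, were *Hoxa4* between gels at 72 h (−0.0202 with upper quartile scaling, −0.32 to 0.2405 with each library left out), *Hoxa2* and *Hoxa5* between gels at 96 h (−0.159 to 0.0044 and −0.2641 to 0.0722 with each library left out, positive without replicate 1 in 1.5 mM gels), and the interaction of *Hoxa4* (−0.5226 to 0.0405 with each library left out, positive without replicate 2 at 72 h in 1.0 mM gels). The labels do not say what a replicate number shares. Deviations from the group means correlated positively in all 18 pairs of libraries with the same replicate number (r from 0.0365 to 0.313, above 0.1 in 13), against −0.262 to 0.111 over 36 pairs with different numbers (above 0.1 in 1), and 9 of 12 correlated best with their own number in each of the other groups. A replicate block gave 5, 4, 0, 0, 5, 0 and 0 DE members. Over all genes the block moved the count of DE genes between gels from 0 to 16 at 72 h and from 0 to 51 at 96 h. Few counts limit *Hoxa7*, *Hoxa9* and *Hoxa10*.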
